A study of Oryza sativa Japonica Group with 59 samples.

Results

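The transcriptomes of cmt3a egg and cmt3b egg of rice were compared directly with each other. The members are the RNA-seq libraries whose labels name the mutant and the cell type, 2 of cmt3a egg and 2 of cmt3b egg, which are 4 of the 59 samples of the series. The series holds 27 RNA-seq libraries in 10 groups and 32 bisulfite sequencing samples, which were not analysed here. Both mutants were made with CRISPR in the japonica variety Zhonghua 11 (ZH11) by knocking out 1 chromomethylase gene each, and eggs came from Cas9-free plants. How many lines gave the egg libraries, and which line gave which, is not named. The 3 WT egg libraries, from plants regenerated through tissue culture, served as a reference level and did not enter the test. All libraries were made from pooled, hand-picked egg cells whose cDNA was amplified, so SDs and p-values cover the spread between libraries, and whether that includes the spread between plants or lines cannot be told. Fewer cells of a kind and less RNA per cell cannot be told apart in such pools.

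Chromomethylases of the CMT3 type are plant enzymes that methylate cytosine in the CHG context, where H is any base but G. They bind histone H3 dimethylated at lysine 9, and the histone and DNA marks reinforce each other, which keeps transposable elements and related sequences silent. The egg is a quiescent cell with few transcripts of replication-dependent histones, and the zygote takes up cell division after fertilization. Rice has a pair of CMT3 genes, CMT3a (LOC_Os10g01570, chromosome 10) and CMT3b (LOC_Os03g12570, chromosome 3), and the comparison asks how the loss of the first differs from the loss of the second in the same cell.

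The guides are shown because each was designed for 1 of the paralogs. The 12 bases next to the PAM, which matter most for Cas9 targeting, are in capitals, each guide is 20 bases long, and all are written 5′ to 3′.
CMT3a sgRNA-1: acgctggtATGCAAGCCCAA
CMT3a sgRNA-2: acaacattATGAGTGGGAAG
CMT3b sgRNA-1: aggggaccGAGCTCGACAGT
CMT3b sgRNA-2: acataatcACCCATACTCGC
Their GC contents were 55% and 40% for CMT3a and 65% and 45% for CMT3b. Coordinates of the cut sites and the alleles in the libraries were not analysed here.

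The counts of the targeted genes followed the labels. CMT3a had 133 and 103 counts in cmt3a egg and 211 and 313 counts in cmt3b egg, although the cmt3a libraries were the deeper ones. As CPM, the usual count scaled by the TMM-normalized library size, these were 5.61 and 5.27 against 19.8 and 26.4, with 11.9 ± 0.89 (SD, n = 3) in WT egg. The log2 fold change of cmt3a over cmt3b was -2.09 ± 0.14 (SE; edgeR's quasi-likelihood test, adjusted p = 3e-11), and WT egg lay between the mutants. CMT3b had 0 and 1 counts in cmt3b egg and 8 and 19 counts in cmt3a egg, against 89 to 151 counts in WT egg. It was thus at or near 0 in the egg where it was the target, and it was also far below WT in cmt3a egg, at 0.34 and 0.97 CPM against 4.86 ± 0.18 CPM (SD, n = 3) in WT. In the other cells of cmt3b the gene was not at 0, with 109 to 144 counts in meiocyte, 52 to 100 in sperm and 43 to 58 in zygote, against 359 to 587, 501 to 539 and 118 to 214 in the same WT cells. CMT3b was too low in the mutant eggs to be tested between them. A count over the whole gene measures RNA and not whether the protein is made.

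Other genes of DNA methylation and of the H3K9 mark were few in the annotation at hand. Of 6 such genes, 4 passed the filter on low counts, 0 were higher in cmt3a and 2 were higher in cmt3b, beside 17.7% and 19.3% of all genes tested. The second, besides CMT3a, was MET1b (LOC_Os07g08500), a maintenance methyltransferase of the CG context, at 4.97 and 5.84 CPM in cmt3a egg and at 15.2 and 17.6 CPM in cmt3b egg (log2 fold change -1.61 ± 0.14, adjusted p = 2e-09). WT egg had 6.88 ± 0.73 CPM (SD, n = 3), near the cmt3a level. JMJ706 (LOC_Os10g42690), an H3K9 demethylase, had 5.82 and 5.43 CPM against 9.65 and 9.88 CPM, a log2 difference of -0.79 that stayed under the fold limit of 2. JMJ707 (LOC_Os02g46930), its close relative, had 1.18 and 1.48 CPM against 2.15 and 2.36 CPM and did not pass the test (adjusted p = 0.023). The DNA demethylase gene ROS1b (LOC_Os02g29230) was at 4 and 2 counts in cmt3a egg and at 0 counts in both cmt3b libraries. All 4 tested genes had the higher levels in the cmt3b libraries. Under 4 of the 17 alternative settings described at the end, 1 gene of the list was called higher in cmt3a. CMT3a and MET1b are also in the study's zygotic list described further on.

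The cmt3a egg libraries held 24464327 and 20739658 counts, more than the 10142664 and 11388970 counts of the cmt3b egg libraries, and WT egg libraries held 16151914 to 25610860. Every mutant library was closest to WT egg among the WT cell types across 28383 genes, with Spearman coefficients of 0.912 in cmt3a egg and 0.948 in cmt3b egg, and zygote came next at 0.880 to 0.881 and 0.941. The cmt3a libraries stood apart in their make-up. A single locus on chromosome 9, LOC_Os09g01000, took 13.2% and 14.8% of their counts, against 1.22% and 1.19% in cmt3b egg and 1.51% to 1.64% in WT egg. A neighbour, LOC_Os09g00999, took 1.76% and 2.02% against 0.682% and 0.679%. The sources used here do not annotate either locus. The cmt3a libraries also held more features with only a few counts: 17109 and 14701 features had 1 to 9 counts, against 7110 and 6937 in cmt3b egg and 5702 to 5812 in WT egg. After 1 random draw that thinned the 4 libraries to 10142664 counts each, the cmt3a libraries still had 12080 and 11325 such features. The part of this difference in the results below was not tested. The counts of called and of specific genes are also given with thinned libraries and without those loci. The WT classes and the runs of neighbours were not recomputed that way.

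Of 55986 features, 21694 passed the filter on low counts. In cmt3a egg 3829 genes were higher and in cmt3b egg 4187 genes were higher (adjusted p under 0.01 and fold change over 2), which is 17.7% and 19.3% of the genes tested and 37.0% in all. The libraries of the 2 mutants did not overlap for any of the 8016 called genes, but they did not overlap for 89.7% of all genes tested either. The median log2 fold change of all tested genes was 0.02. The common biological coefficient of variation from edgeR, which leaves out counting noise, was 4.34%. With genes at 3 counts or fewer in both libraries of a mutant set to their lower bound, 567 genes were more than 8-fold higher in cmt3a and 969 in cmt3b. The same setting left the list medians given below as they were. In 5 draws of thinned libraries, 3432 to 3473 genes were higher in cmt3a and 3885 to 3939 were higher in cmt3b, of which at least 3359 and 3708 were among the genes called at full depth. Without the chromosome 9 loci, an alternative chosen after seeing the data, the counts were 3784 and 4251.

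**Figure D1:**
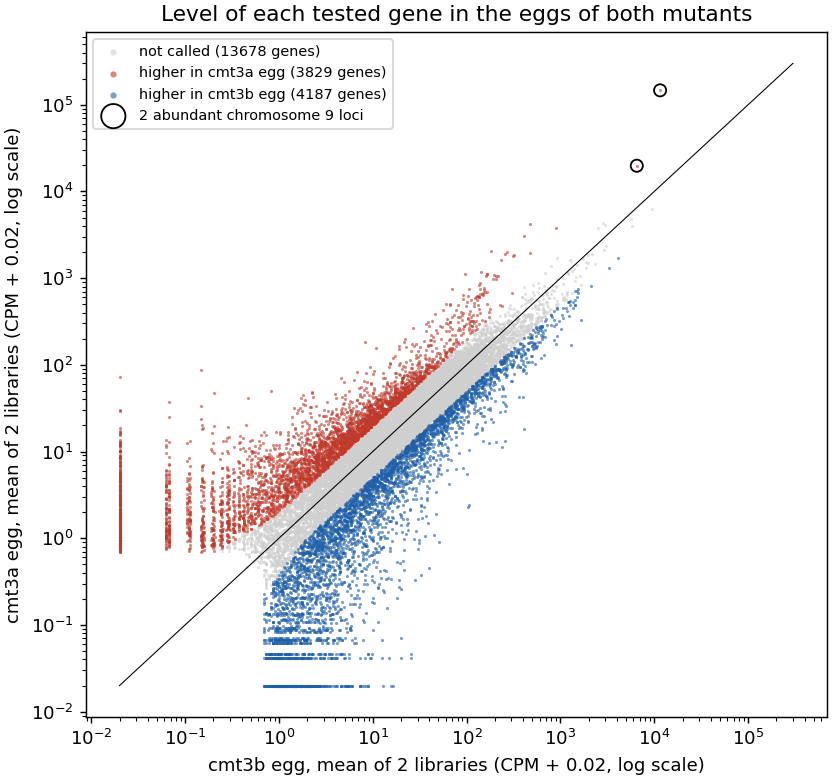
Mean level of each of the 21694 tested genes in cmt3b egg (x axis) and cmt3a egg (y axis), as CPM plus 0.02 on log scales, 2 libraries each. The genes higher in cmt3a (3829) and in cmt3b (4187) lie on both sides of the diagonal, with stripes at the left and the bottom for genes at 0 or a few counts in 1 mutant. Circles mark the 2 abundant chromosome 9 loci.

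The WT egg level was set beside each called gene as a reference. Of the 3829 genes higher in cmt3a egg, 1985 (51.8%) had a WT egg level within 2-fold of cmt3b egg only, and 513 had one within 2-fold of cmt3a egg only. Of the 4187 genes higher in cmt3b egg, 1747 (41.7%) were within 2-fold of WT in cmt3b egg only and 922 were so in cmt3a egg only. WT was within 2-fold of both mutants for 723 and 586 genes. Over all tested genes, 22.8% were within 2-fold of WT in cmt3b egg only, 9.94% in cmt3a egg only and 55.1% in both. In both directions the class near WT in cmt3b egg only was the largest. WT was below both mutants for 384 of the genes higher in cmt3a and 311 of those higher in cmt3b, and above both for 22 and 216. These classes rest on mean log2 CPM and were not tested.

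**Figure D2:**
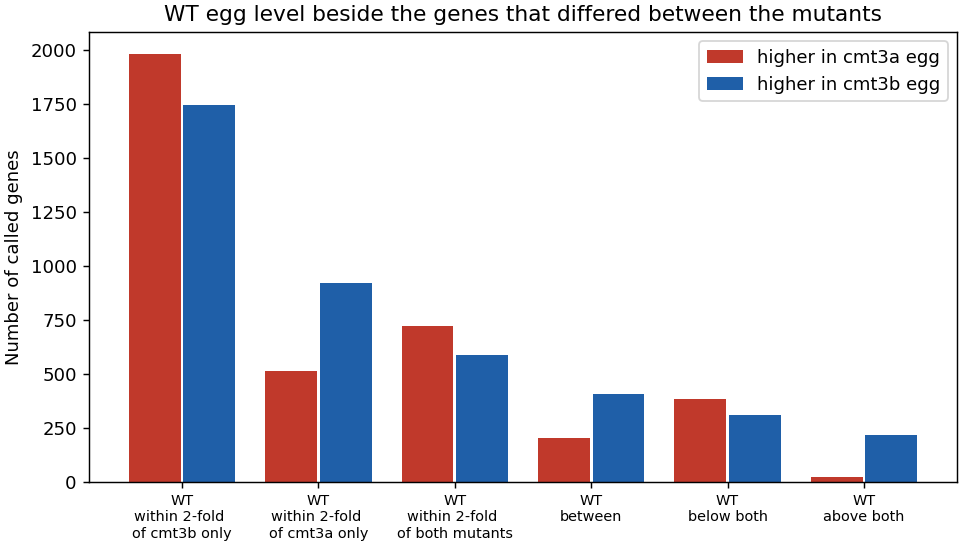
Number of called genes (y axis) by where the WT egg level lay relative to both mutants (x axis), for genes higher in cmt3a egg (red) and in cmt3b egg (blue). In both directions the largest class has WT within 2-fold of cmt3b egg only, with 1985 and 1747 genes.

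Genes were called specific to a mutant when they were higher there and had 3 counts or fewer in both libraries of the other. Their mean also had to reach 1 CPM of total counts, without TMM. By this rule 576 genes were specific to cmt3a egg and 677 to cmt3b egg. Since the rule used these levels, the difference between the mutants is a description. A floor of 3 counts equals 0.154 CPM in the smaller cmt3a library and 0.281 CPM in the smaller cmt3b library, so that a gene could reach the floor more easily in cmt3b. In the thinned libraries 525 to 559 and 827 to 844 genes were specific, and 420 and 547 genes were specific in the full libraries and in all 5 draws. Without the chromosome 9 loci 664 and 693 were specific. Most of these genes had few transcripts, with medians of 2.19 CPM and 1.72 CPM, and 43 and 11 of them reached 10 CPM.

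The cmt3a-specific genes were mostly at the floor in WT egg. All 3 WT egg libraries were at the floor for 364 of the 576 genes (63.2%), beside 4.14% of all tested genes. They were above it for 114 (19.8%), beside 93.7%. The 576 genes were chosen at the floor in cmt3b egg, where 3.47% of all tested genes were at it. Part of the gap to all tested genes can therefore follow from the rule, and how much was not tested. For 98 of the 576, each of the 14 WT files, from meiocyte, microspore, sperm, egg and zygote, was at the floor, as were 164 (0.756%) of all tested genes. The highest of the group, LOC_Os07g02430, had 86.5 and 88.3 CPM in cmt3a egg, 0 and 3 counts in cmt3b egg and 0 counts in WT egg. LOC_Os10g30240 had 73.2 and 69.7 CPM in cmt3a egg and 0 counts in all cmt3b egg and WT egg libraries, at least 254-fold higher than 3 counts in the smaller cmt3b library. LOC_Os10g30240 reached at most 2 counts in any library of the other 9 groups, whereas LOC_Os07g02430 had 114 to 129 counts in cmt3b sperm and 1 to 9 in WT microspore. These 2 identifiers carry no annotation in the sources used here. An annotated member was ONAC025 (LOC_Os11g31330), a NAC-domain transcription factor, with 94 and 85 counts in cmt3a egg, 1 count in each cmt3b library and 0 counts in WT egg.

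Most cmt3b-specific genes were detected in WT egg. All 3 WT egg libraries were above the floor for 502 of the 677 genes (74.2%, beside 93.7% of all). They were at the floor for 110 (16.2%, beside 4.14%). Most of the group was thus present in WT egg and at the floor in cmt3a egg. The gaps to all genes can again in part follow from the rule. WT egg had at least 0.5 times the cmt3b level for 290 of them, against 17 of the cmt3a-specific genes. LOC_Os02g58470 shows this pattern, with 21.8 and 18.4 CPM in cmt3b egg, 11.6 ± 0.53 CPM (SD, n = 3) in WT egg, and 0 and 2 counts in cmt3a egg. LOC_Os01g58600 shows the other one, with 26.6 and 25.0 CPM in cmt3b egg, 1 and 0 counts in cmt3a egg, and only 0.40 ± 0.20 CPM in WT egg. Of the 110 genes at the floor in WT egg, 11 were at the floor in every WT file.

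LOC_Os04g43090, annotated as an expressed protein, was the clearest of these 11. It had 283 and 287 counts in cmt3b egg, 0 and 1 counts in cmt3a egg, and at most 1 count in any WT file. In the other cmt3b cells, which the rule had not used, it had 2726 to 3262 counts in meiocyte, 406 to 665 in sperm and 412 to 657 in zygote. The gene was thus present in all 11 cmt3b libraries and at or next to 0 in all others. The gene is among those the authors listed for cmt3b meiocyte and sperm, so only the egg and zygote values are apart from that choice. Of the 11 genes, 1 was above the floor in all libraries of the 3 other cmt3b groups, which is this gene, 4 were above it in all cmt3b meiocyte libraries and 3 in all cmt3b zygote libraries.

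Outside the egg the groups also differed in how often they were present. Of the cmt3b-specific genes, 79.9% were above 3 counts in all WT meiocyte libraries, 75.3% in WT zygote and 60.6% in WT microspore. Of the cmt3a-specific genes, 19.6%, 12.8% and 39.1% were, beside 91.6%, 92.8% and 87.4% of all tested genes. All tested genes were not chosen by a floor, so the gaps to them can in part follow from the rule. The cmt3b zygote libraries resembled WT zygote in this measure, with 70.2% of the cmt3b-specific and 9.90% of the cmt3a-specific genes. Counting noise alone exceeds the difference between both WT sperm files (chi-square per degree of freedom 0.24), so they stand for 1 sample.

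**Figure D3:**
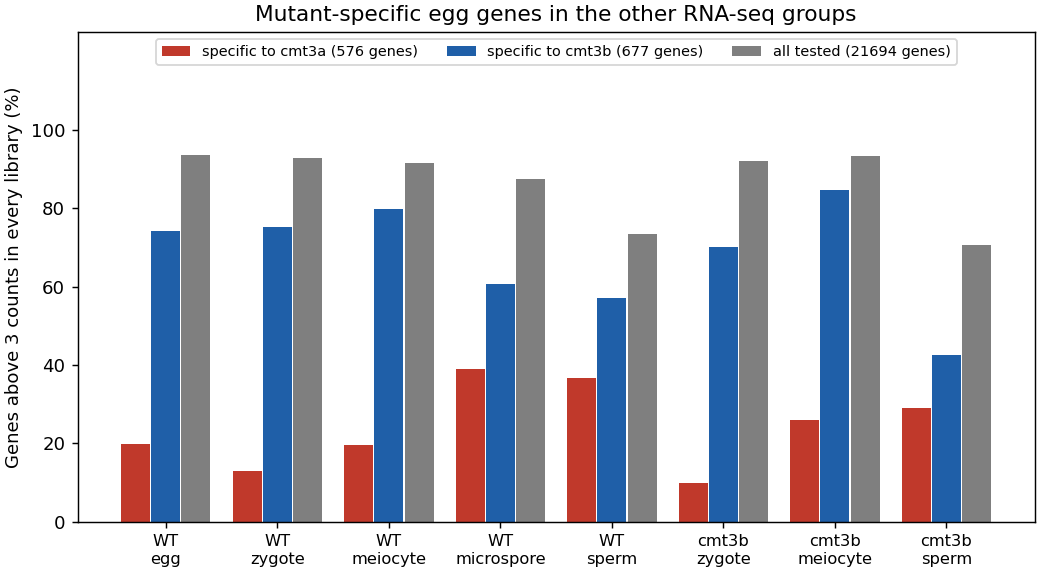
Percentage of genes above 3 counts in every library of a group (y axis) in 5 WT and 3 cmt3b groups (x axis), for genes specific to cmt3a egg (red, 576), specific to cmt3b egg (blue, 677) and all 21694 tested genes (grey). The red bars stay between 9.90% and 39.1%, and the blue bars between 42.5% and 84.6%. The grey genes were not chosen by the floor rule.

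Among the lists, histones were the only one whose tested members were all called, and in a single direction. The study lists 83 zygotic genes that it found raised in cmt3b egg, a choice made on the same cmt3b libraries, so the direction in cmt3b is not independent here. What the direct comparison adds is the level in cmt3a egg beside WT egg. Of 82 tested genes, 71 were higher in cmt3b and 1 was higher in cmt3a, beside 19.3% and 17.7% of all genes. The median log2 fold change was -2.12. These counts, and those of the histones within the list, in large part repeat the choice of genes. All 22 core histone genes of the list were higher in cmt3b egg than in cmt3a egg, with log2 fold changes from -4.00 to -1.34 and a median of -2.18. Their summed level was 1130 and 1192 CPM in cmt3a egg, 4770 and 5004 CPM in cmt3b egg and 1537 to 1639 CPM in WT egg. The 3 groups of libraries did not overlap, and cmt3a egg lay below WT. Core histones form the nucleosome and are made in bulk when DNA is replicated.

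LOC_Os03g06670, a core histone gene, had 12.9 and 12.6 CPM in cmt3a egg and 201 and 206 CPM in cmt3b egg, with 49.4 ± 3.5 CPM (SD, n = 3) in WT egg (log2 fold change -4.00 ± 0.067, adjusted p = 1.8e-20). The histone H3 gene LOC_Os06g06510 had 27.9 and 29.4 CPM against 215 and 235 CPM, and 50.1 ± 1.7 CPM in WT. LOC_Os04g34240, also histone H3, had 6.15 and 6.09 CPM against 59.5 and 63.7 CPM, and 18.0 ± 1.2 CPM in WT. In each of these the order of levels was cmt3a below WT below cmt3b. Histone genes are near-identical copies, and since the handling of reads with several matches is not given in the sources used here, the share of each copy is uncertain.

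Genes for kinesins, motors that move along microtubules, and microtubule-associated proteins were also mostly higher in cmt3b egg. Of the 8 kinesin and microtubule-associated genes of the list, 7 were higher in cmt3b egg, beside 19.3% of all genes. That count too in large part repeats the choice of genes, made on the same cmt3b libraries. The 8 genes summed to 37.1 and 40.8 CPM in cmt3a egg, 140 and 131 CPM in cmt3b egg and 61.0 to 64.2 CPM in WT egg. The kinesin gene SIP27 (LOC_Os02g28850) had 2 and 1 counts in cmt3a egg, 65 and 63 counts in cmt3b egg and 49 to 89 counts in WT egg. At the differing depths, the cmt3b counts equal 6.09 and 5.32 CPM and the WT counts 2.67 ± 0.22 CPM (SD, n = 3). SIP27 was thus present in WT egg, higher in cmt3b egg and nearly absent from cmt3a egg. The microtubule-associated gene LOC_Os01g49200 had 7.97 and 8.70 CPM against 40.4 and 38.3 CPM (log2 fold change -2.24 ± 0.10, adjusted p = 2.9e-14) and 19.5 ± 0.83 CPM in WT. LOC_Os05g47970, the weakest of the 7 with 4 to 18 counts per library, was not called without the first cmt3b library (adjusted p = 0.16) or the second cmt3a library (adjusted p = 0.016). LOC_Os12g42160, a kinesin, had 6.74 and 9.16 CPM against 10.5 and 9.37 CPM and was not called. The gene of the zygotic list that was higher in cmt3a egg was LOC_Os02g56570, which encodes a TBC domain protein, at 8.30 and 6.55 CPM against 2.06 and 1.69 CPM. Under 5 of the 17 alternatives, 2 genes of the list were higher in cmt3a.

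**Figure D4:**
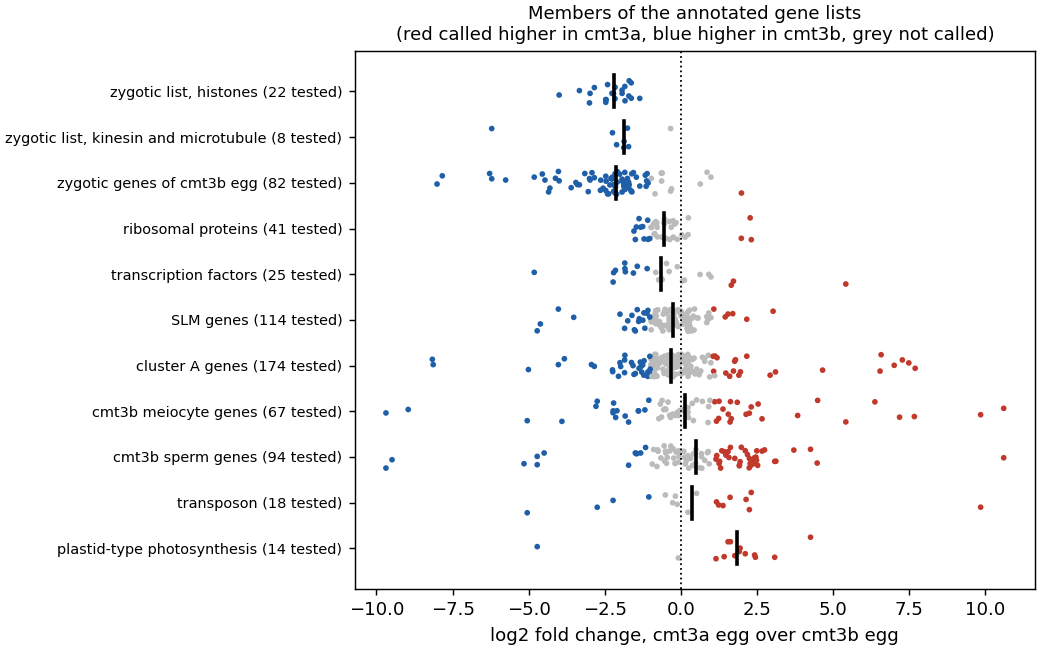
Log2 fold change of cmt3a egg over cmt3b egg (x axis) of the tested members of 11 gene lists (y axis). Each point is a gene, red where higher in cmt3a, blue where higher in cmt3b and grey where not called. Black bars are list medians and the dotted line is the median of all tested genes, 0.02. The 22 histone genes lie at -1.34 or below.

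Annotations were at hand only for genes in the study's own lists, chosen for methylation or for changes in cmt3b cells. The families named below are therefore parts of families. Of 39 transcription factors annotated by the study, 25 were tested (median log2 fold change -0.64). Of these, 10 were higher in cmt3b and 3 in cmt3a, beside 19.3% and 17.7% of all genes. The direction is partly set by the choice of genes: 10 of the 25 are in the zygotic list, of which 7 were higher in cmt3b, and of the other 15, 3 were higher in each mutant. HAP3L and the HMG-box gene below are in that list. HAP3L (LOC_Os09g39490), a histone-fold protein of the HAP3 family, had 6.24 and 5.79 CPM in cmt3a egg and 25.0 and 28.2 CPM in cmt3b egg, with 12.6 CPM in WT. The HMG-box gene LOC_Os02g15810 had 20.5 and 24.2 CPM against 102 and 103 CPM, and 31.9 ± 2.0 CPM in WT (log2 fold change -2.20 ± 0.074). EIL6 (LOC_Os04g38400), of the EIN3 family that acts in ethylene signalling, was low in both mutants, with 9 and 6 counts in cmt3a egg, 16 and 21 counts in cmt3b egg and 218 to 340 counts in WT egg. It differed between the mutants and was below WT in both. On the other side, GAMYBL2 (LOC_Os03g38210), a MYB factor, had 55.8 and 64.6 CPM in cmt3a egg and 17.8 and 18.2 CPM in cmt3b egg, with 46.8 CPM in WT, so here cmt3b was the mutant away from WT. The MADS-box gene MADS83 (LOC_Os04g24810) was at 0 counts in cmt3a egg and at 20 and 28 counts in cmt3b egg, and had at most 3 counts in WT egg.

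Of 22 annotated kinases in the study's lists 16 were tested. Of these, 4 were higher in cmt3b and 1 in cmt3a, beside 19.3% and 17.7% of all genes. The count of 1 towards cmt3a fell to 0 under 4 of the 17 alternatives. The receptor-like cytoplasmic kinase RLCK19 (LOC_Os01g03690) had 1.05 and 1.18 CPM in cmt3a egg and 7.49 and 8.44 CPM in cmt3b egg, against 0.37 ± 0.082 CPM in WT. Of 12 F-box genes in the study's lists 5 were tested and 1 was higher in cmt3a, beside 17.7% of all genes. The gene was Fbox059 (LOC_Os02g01550), at 21.3 and 21.4 CPM against 9.46 and 10.6 CPM. Its log2 fold change of 1.08 fell to 0.99 without the first cmt3b library and to 0.95 with total counts in place of TMM, under the fold limit in both. The number of F-box genes higher in cmt3a moved under 4 of the 17 alternatives, within 0 to 2.

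Of 42 ribosomal protein genes in the study's lists 41 were tested, and the median log2 fold change was -0.55. Of these, 10 were higher in cmt3b and 3 in cmt3a, beside 19.3% and 17.7% of all genes. The share higher in cmt3b was near that of all genes. The largest difference towards cmt3b was the 60S protein gene rpL32_8.1 (LOC_Os08g41300), with 475 and 509 CPM in cmt3a egg, 1432 and 1422 CPM in cmt3b egg and 698 ± 28 CPM in WT egg (log2 fold change -1.54 ± 0.055). The 3 genes higher in cmt3a are the 3 of the list annotated for organelles, as chloroplast S7 (LOC_Os08g15246), chloroplast S14 (LOC_Os10g38238) and mitochondrial S3 (LOC_Os12g34054). LOC_Os12g34054 had 1065 and 1023 CPM in cmt3a egg, 216 and 212 CPM in cmt3b egg and 79.9 ± 2.4 CPM in WT egg, and LOC_Os08g15246 had 578 and 544 CPM, 112 and 112 CPM and 77.3 ± 14 CPM.

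Loci annotated for photosystem proteins and the large chain of Rubisco, which plants encode in the chloroplast genome, showed the same direction. Of 14 such loci in the study's lists, all tested, 12 were higher in cmt3a egg and 1 in cmt3b egg. Beside these stand 17.7% and 19.3% of all genes. The median log2 fold change of the 14 loci was 1.85. Their summed level was 1106 and 1004 CPM in cmt3a egg, 277 and 265 CPM in cmt3b egg and 129 to 132 CPM in WT egg, so both mutants were above WT. LOC_Os10g38216, annotated as the photosystem I assembly protein ycf3, had 197 and 172 CPM against 22.5 and 20.9 CPM (log2 fold change 3.09 ± 0.08, adjusted p = 3.8e-18), and 10.8 ± 0.57 CPM in WT. The exception, LOC_Os11g32770, rested on 8 and 10 counts in cmt3b egg and was not called in the thinned libraries or without either cmt3b library. The small chain of Rubisco is encoded in the nucleus, and 2 such genes of the study's lists were tested. The first, rbcS3 (LOC_Os12g19381), had 2.61 and 2.61 CPM in cmt3a egg and 7.87 and 6.59 CPM in cmt3b egg and was higher in cmt3b. The other, rbcS2 (LOC_Os12g17600), was not called. It had at most 2.25 CPM in any mutant library and was called higher in cmt3b without the second library of either mutant. Copies of chloroplast sequence in the nucleus can share reads with the organelle, so the source of these counts is uncertain.

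These loci lay in long runs of neighbours. When tested genes were put in identifier order, which follows the chromosome, 30 runs of at least 5 neighbours called higher in cmt3a were found, with 328 genes and up to 49 genes in a run. Higher in cmt3b there were 10 runs with 59 genes and at most 9 genes each. The longest runs were on chromosome 4 (49 genes), chromosome 10 (44), chromosome 1 (23) and chromosome 8 (22), and their median log2 fold changes lay between 2.23 and 2.49. The run of 49 summed to 22943 and 22219 CPM in cmt3a egg, 4426 and 4326 CPM in cmt3b egg and 2538 to 2656 CPM in WT egg. Of the 14 chloroplast-type loci, 11 were inside 5 of the runs higher in cmt3a. The runs hold 8.57% of the genes higher in cmt3a and 1.41% of those higher in cmt3b. By chromosome, the share of tested genes higher in cmt3a was highest on chromosome 10 (26.0%) and lowest on chromosome 3 (13.2%), and the share higher in cmt3b was 15.1% to 21.9%.

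**Figure D5:**
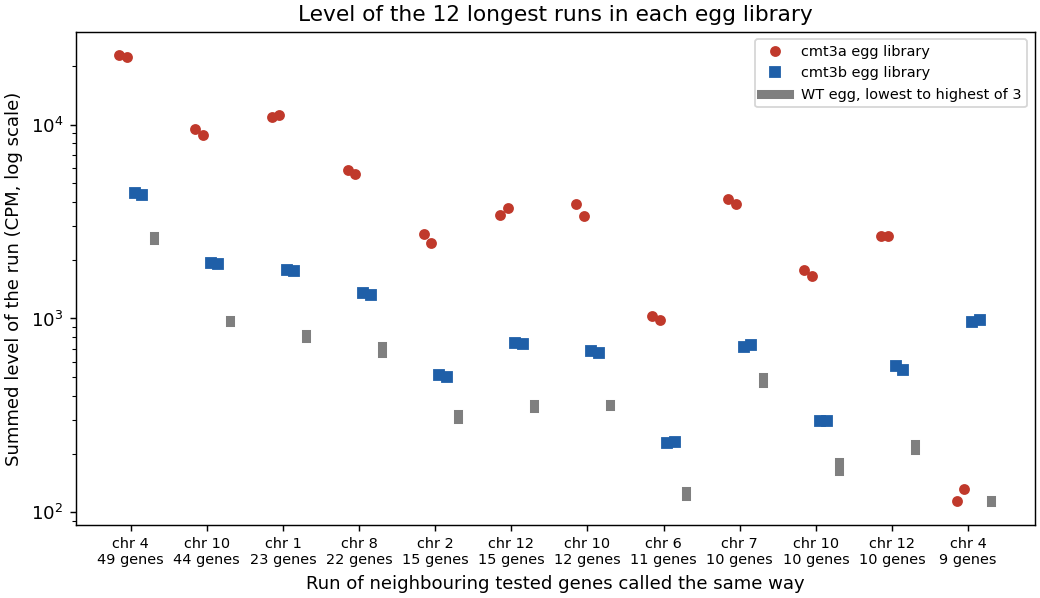
Summed level in CPM (y axis, log scale) of the 12 longest runs of neighbouring tested genes called the same way (x axis), in each cmt3a egg library (red), each cmt3b egg library (blue) and over 3 WT egg libraries (grey, lowest to highest). In the first 11 runs both mutants are above WT and cmt3a is the highest. In the last, on chromosome 4 with 9 genes, cmt3b is at 960 and 977 CPM and cmt3a at 114 and 131 CPM, near WT.

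A run of 5 genes on chromosome 8, from LOC_Os08g32360 to LOC_Os08g32430, is described because it was nearly absent from cmt3b egg alone. Other runs also had cmt3b egg as the mutant further from WT, such as the 9 genes on chromosome 4. Single genes of the run differed from WT in cmt3a egg too. LOC_Os08g32400 had 4.64 and 4.51 CPM there against 13.4 CPM in WT egg, and LOC_Os08g32430 had 2.91 and 3.69 against 1.32 CPM. Summed over the 5 genes, cmt3b egg had 1 and 0 counts, cmt3a egg had 685 and 535 counts, and WT egg had 757 to 1158 counts. Each of the 5 genes was called, and the 4 at 0 counts in both cmt3b libraries were at least 11.7-fold to at least 27.5-fold higher in cmt3a egg. In the other cmt3b cells the same genes were present at other levels relative to WT: 65.9 to 70.2 CPM of total counts in cmt3b meiocyte against 137 to 144 in WT meiocyte, and 12.4 to 14.3 in cmt3b zygote against 41.3 to 42.1 in WT zygote. In sperm cmt3b was the higher one, with 12.7 to 13.8 against 5.96 and 6.04. The run was chosen after its values were seen, and its cause was not tested. A run high in cmt3a egg alone was found for 5 genes on chromosome 2. It had 31.7 and 31.5 CPM in cmt3a egg, 1.03 and 1.01 CPM in cmt3b egg and 0.10 to 0.56 CPM in WT egg.

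Not all genes annotated as transposons in the study's lists were high enough to be tested. Of 33 that the study annotates, 18 were tested, 8 were higher in cmt3a and 4 in cmt3b, with summed levels of 265 and 268 CPM in cmt3a egg, 137 and 149 CPM in cmt3b egg and 52.7 to 55.3 CPM in WT egg. Both mutants were above WT and cmt3a was the higher one. A retrotransposon gene, LOC_Os07g48000, had 186 and 121 counts in cmt3a egg and 0 counts in all cmt3b egg and WT egg libraries, at least 25.0-fold higher than the floor in cmt3b egg. It was not silent in every cmt3b cell, with 133 to 219 counts in zygote, 123 to 158 in sperm and 64 to 93 in meiocyte. Another, LOC_Os03g19600, had 33.3 and 39.3 CPM against 7.68 and 6.84 CPM and 0.34 ± 0.14 CPM in WT (log2 fold change 2.32 ± 0.12). A CACTA element gene, LOC_Os06g09410, went the other way, with 0 and 2 counts in cmt3a egg, 12 and 28 in cmt3b egg and 12 to 20 in WT egg. As CPM, that gene was at 1.12 and 2.36 in cmt3b egg and at 0.57 ± 0.13 (SD, n = 3) in WT egg. Without the second cmt3b library 2 transposon genes were higher in cmt3b. A member that passes the filter on low counts only through the mutant where it is high had to differ, here and in the other lists, so counts are read only beside 17.7% and 19.3% of all genes.

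Lists that the study drew from cmt3b male cells had more members higher in cmt3a egg than in cmt3b egg. Of 122 genes listed for cmt3b sperm 94 were tested, and 38 were higher in cmt3a egg and 12 in cmt3b egg (median log2 fold change 0.49). Of 148 listed for cmt3b meiocyte 67 were tested, with 23 and 17 (median 0.13, and -0.02 to 0.47 under the alternatives). Beside 17.7% and 19.3% of all genes, the meiocyte list was above both shares. The sperm list was above the first and below the second. The chloroplast-type and ribosomal loci described above come from the study's lists too and may be among these genes. LOC_Os03g43100, an expressed protein in both lists, had 275 and 241 counts in cmt3a egg, 0 in cmt3b egg and 0 in WT egg, at least 42.6-fold higher, while it had 650 to 824 counts in cmt3b meiocyte and 705 to 859 in cmt3b sperm. In cmt3b zygote it had 49 to 90 counts, against 0 in WT zygote. In the egg it was thus present in the mutant that does not carry the cmt3b edit. SCL1 (LOC_Os03g59280), a plastocyanin-like protein, had 0 counts in both cmt3a egg libraries, 37 and 48 in cmt3b egg and 27 to 44 in WT egg. As CPM, SCL1 was at 3.47 and 4.05 in cmt3b egg and at 1.35 ± 0.13 (SD, n = 3) in WT egg. Of the 315 genes that the study took from its cluster A of regions with more CHG methylation in microspore, 174 were tested. Of these, 21 were higher in cmt3a and 32 in cmt3b (median -0.31). Of the 132 genes with sexual lineage-specific methylation (SLM) 114 were tested, with 6 and 19 (median -0.27). Both pairs of counts stand beside 17.7% and 19.3% of all genes. The aquaporin gene PIP2;4 (LOC_Os07g26630), an SLM gene, had 0.04 and 0.20 CPM in cmt3a egg, 1.69 and 2.28 CPM in cmt3b egg and 0.98 ± 0.059 CPM in WT egg.

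The genes that separated the mutants were set beside 2 comparisons that share no library with them. Between WT zygote and WT egg, 13.1% of 21265 tested genes were higher in zygote and 9.64% were lower. Of the genes higher in cmt3b egg that were tested there, 1187 of 3758 (31.6%) were higher in WT zygote and 271 (7.21%) were lower. Of the genes higher in cmt3a egg, 229 of 2889 (7.93%) were higher in WT zygote and 489 (16.9%) were lower. Genes higher in cmt3b egg than in cmt3a egg thus had zygote-high genes above the background share, and genes higher in cmt3a egg had them below it. Between cmt3b zygote and WT zygote, 8.67% of 20638 tested genes were higher in cmt3b and 8.08% were lower. Of the genes higher in cmt3b egg, 341 of 3700 (9.22%) were higher and 424 (11.5%) were lower in cmt3b zygote, so the share higher was near the background. Of the genes higher in cmt3a egg, 482 of 2775 (17.4%) were higher and 281 (10.1%) were lower.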

How the data were processed

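Eggs were isolated by hand and their cDNA was amplified with a low-input kit, for which the labels and the study's methods name different products. Per the labels and the study's methods, the authors cleaned reads with fastp 0.20.1, aligned them with HISAT2 to MSU7.0 and counted them per gene with featureCounts. Strand and multiple-match settings are not given in the sources used here. The deposited files hold raw counts, FPKM computed by the authors from them, and TPM, which was not used. The FPKM values served only to derive gene lengths and were not tested. Each library was compared on its counts with edgeR 4.0.16, run under R 4.3.3 beside limma 3.58.1, using TMM, filterByExpr at a minimum count of 10 and the quasi-likelihood test, with p-values adjusted over all tested genes by the method of Benjamini and Hochberg. Genes were called at adjusted p under 0.01 and fold change over 2, the limits of the study's methods. WT egg CPM was put on the same scale through TMM against the same reference library, and its classes use log2 CPM with a prior count of 2. Where a mutant is at 0 counts, folds are bounds against 3 counts in its smaller library. Alternatives were DESeq2 1.42.0, its size factors, total counts, other filters, thinning to equal totals (5 draws), a replicate block, WT egg in the fit, leaving out each library and leaving out the chromosome 9 loci. The scripts were tested on simulated data.

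Named genes are CMT3a and CMT3b, the genes with the largest changes and the highest mutant-specific levels at 10 CPM or more, up to 4 called members per list by size of change, and the DNA methylation genes. Others were chosen after their values were seen. Members and lists were chosen with earlier results of these data known. Gene symbols come from the study's text and tables, since 0 identifiers matched the reference table. Lists whose identifiers no source pairs with a name, among them planned cell type markers, were not used. Replicates of cmt3a and cmt3b differed by more than counting noise (chi-square per degree of freedom 5.31 and 1.41). At the depth of the smaller cmt3b library, 3 counts equal 0.281 CPM. Floors cover counting error only.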

Additional observations from a re-analysis of the deposited data

How the results depend on the processing

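The counts of genes higher in cmt3a (3829) and in cmt3b (4187) stayed within 1.5 times under all 17 alternatives: 3400 and 3920 with DESeq2, 3361 and 4751 with total counts in place of TMM, which moved the median of all genes by -0.129 on the log2 scale, 4790 and 4579 with no filter, and 3100 and 3295 with a minimum count of 30. That stricter filter moved the specific genes from 576 and 677 to 298 and 267, since fewer low genes were tested. Without each library in turn, the counts were 3686 to 3786 and 3743 to 4300, and 568 to 698 and 542 to 820 for specific genes. The replicate block gave 3818 and 4158, and 576 and 677. Whether libraries of the same replicate number share a harvest or batch is not known. Replicate differences of both mutants correlated at 0.032 across genes, which cannot exclude a small shared effect. Per pair in the zygote comparisons they correlated at 0.0058 to 0.053. The counts of those comparisons also stayed within 1.5 times. Among single genes, 0 changed direction; LOC_Os05g36050, LOC_Os05g47970 and LOC_Os02g01550 lost their calls under some settings, LOC_Os11g32770 was among the genes tested in only 9 of 17, and JMJ706 gained one in 2 thinned draws (log2 -1.04 and -1.02). Transposon members higher in cmt3b fell from 4 to 2 without the second cmt3b library. Depth limits statements on genes under 0.281 CPM in cmt3b egg, and the spread rests on 2 libraries per mutant.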
